A study of Mus musculus with 4 samples.

Results

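Oxidative phosphorylation (OXPHOS) subunits encoded in the nucleus were followed across the cell types of the mouse BNST (bed nucleus of the stria terminalis), which belongs to the extended amygdala of the forebrain. Genes were taken by symbol from the gene tables: Nduf followed by a, b, c, s or v and a digit for complex I, Sdha to Sdhd for complex II, names starting with Uqcr for complex III, Cox4 to Cox8 for complex IV and names starting with Atp5 for complex V, with pseudogenes ending in -ps left out. Of the 20136 genes listed, 81 met the rule in all 4 tables, namely 37 of complex I, 4 of complex II, 8 of complex III, 16 of complex IV and 16 of complex V. Cox8b was listed in 2 of the tables and was not counted. The rule works on names: Ndufa4 is counted with complex I although its protein is now placed in complex IV, and Atp5s and Atp5sl, whose products act in assembly, are counted with complex V.

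Tissue punched from the BNST had been profiled in 4 libraries by Drop-seq, a method that captures the RNA of single cells on barcoded beads in droplets and tags every captured molecule with a random sequence, so that a unique molecular identifier (UMI) count stands for molecules rather than reads. Every mouse was a male of the C57BL/6J strain and wildtype in genotype, the labels name no treatment, and each library pooled 6 mice, so that the 4 libraries stand for 24 mice in 4 batches. There was 1 experimental group, and the comparisons below are between cell types within the same libraries.

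The respiratory chain passes electrons from NADH through complex I and from succinate through complex II to ubiquinone, then through complex III and cytochrome c to complex IV, where oxygen is reduced. Complexes I, III and IV pump protons, and complex V, the ATP synthase, uses the gradient to make ATP. All subunits of complex II and most of those of the other complexes are encoded in the nucleus, while a small core of complexes I, III, IV and V is encoded in mitochondrial DNA. In brain tissue, neurons use most of this ATP to restore ion gradients after electrical activity, while astrocytes and oligodendrocytes are known for a larger reliance on glycolysis.

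Promoters of 67 of the 81 genes were found in the RefSeq promoter table (GRCm38.p6), in which a promoter covers 250 bases before and 50 bases after a gene's start. Short motifs of factors known to act on respiratory genes were searched on both strands. The NRF1 motif GCGCATGCG was in 7 of the 67 genes (10.4%) and in 1.95% of all 27025 genes with a promoter in the table. The ETS motif CCGGAAG, the core bound by the factor NRF2/GABP, was in 16 (23.9%) against 9.93% of all genes. The YY1 motif AAGATGGC was in 11 (16.4%) against 3.19%, and the ERR motif TCAAGGTCA, bound by estrogen-related receptors, was in 2 (2.99%) against 0.466%. At least 1 of the 4 motifs was found in 30 of the 67 genes (44.8%) and in 14.5% of all genes, no gene had an ETS match that overlapped a YY1 match, and the median GC content was 57.3% in the 73 promoters of these genes against 52.7% in all promoters. The 180 bases before the start of 3 genes are shown, 1 with an ERR, 1 with an ETS and 1 with both an NRF1 and an ETS match. Atp5g3 and Uqcrh are genes whose levels differed among cell types below, and Cox6a1 is the common partner of the isoform Cox6a2. All 3 genes lie on the minus strand, the sequences run 5′ to 3′ on that strand, and capitals mark the motifs or their reverse complements.
Atp5g3, chr2:73911327-73911506: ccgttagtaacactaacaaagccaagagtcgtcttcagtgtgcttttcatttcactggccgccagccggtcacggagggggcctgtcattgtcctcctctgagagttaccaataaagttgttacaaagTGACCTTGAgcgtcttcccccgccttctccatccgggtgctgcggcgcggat
Uqcrh, chr4:116075071-116075250: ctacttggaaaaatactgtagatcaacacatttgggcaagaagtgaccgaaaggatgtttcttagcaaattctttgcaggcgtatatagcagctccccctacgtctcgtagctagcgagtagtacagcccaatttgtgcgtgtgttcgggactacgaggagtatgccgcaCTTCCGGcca
Cox6a1, chr5:115348959-115349138: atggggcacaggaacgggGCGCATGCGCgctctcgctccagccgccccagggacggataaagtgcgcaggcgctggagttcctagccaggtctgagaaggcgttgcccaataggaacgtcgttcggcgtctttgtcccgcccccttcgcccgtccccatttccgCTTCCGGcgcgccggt
The ERR match of Atp5g3 starts 52 bases before the gene's start, the ETS match of Uqcrh 10 bases before it, and the NRF1 and ETS matches of Cox6a1 162 and 16 bases before it; the NRF1 motif also matches 161 bases before on the opposite strand, so that its capitals run 1 base longer. These matches are a description of the letters.

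In GENCODE vM21 (GRCm38), 80 of the 81 genes had a position, 77 on autosomes and 3 on X. They were spread over 19 chromosomes rather than lying in a cluster.

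The 4 tables held 10200 barcodes and 14018026 UMIs, 2640399 to 5652342 per library. A barcode counted as a cell where 400 or more genes were detected and mitochondrial UMIs did not exceed 10%, and 62 of 4239 were removed as doublets, which left 4177 cells with 12016405 UMIs, of which 328768 belonged to the 81 OXPHOS genes. Libraries shared 1 to 7 barcodes by pair. A cell entered a class when its marker UMIs for that class numbered at least 3 and at least 2 times those of every other class; no OXPHOS gene was a marker. There were 2537 neurons (median 3147 UMIs per cell), 928 oligodendrocytes (1387.5), 403 astrocytes (815), 129 oligodendrocyte precursor cells (OPC, 1069) and 82 vascular cells (859), while 10 microglia and 88 cells of no class were not compared. Because cells were gated on these lists, each class was high in its own markers by construction, which is no separate check of identity. The neuron list reached 12033 to 15934 CPM (UMIs of a gene or list per 1e+06 UMIs of the group) per library in neurons, 643 to 1061 in OPC and at most 726 in the other classes.

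Library 3 stood apart for the OXPHOS genes in neurons, the class in which all genes were counted as well. In neurons, 78 members had at least 20 UMIs, and library 3 was the lowest of the 4 libraries for 72 of them. Its neurons lay below the mean of the other libraries for 77 of the 78, with a median log2 ratio of -0.66, whereas the median over 12206 genes was 0.05 and 5630 of those lay below. In the other classes library 3 was the lowest for 50 of 74 members in oligodendrocytes, 45 of 68 in astrocytes, 23 of 47 in OPC and 15 of 30 in vascular cells. How often it was the lowest over all genes in those classes was not counted. In the same neurons the nuclear RNAs Malat1 and Meg3 made up 1.24%, 1.46%, 2.54% and 2.49% of UMIs in libraries 1 to 4 and ribosomal protein genes 1.35%, 1.08%, 0.957% and 0.992%; the part of either in the result was not tested. Summed levels are therefore given per library, with the mean without library 3 beside them, and each test kept library as a block.

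**Figure D1:**
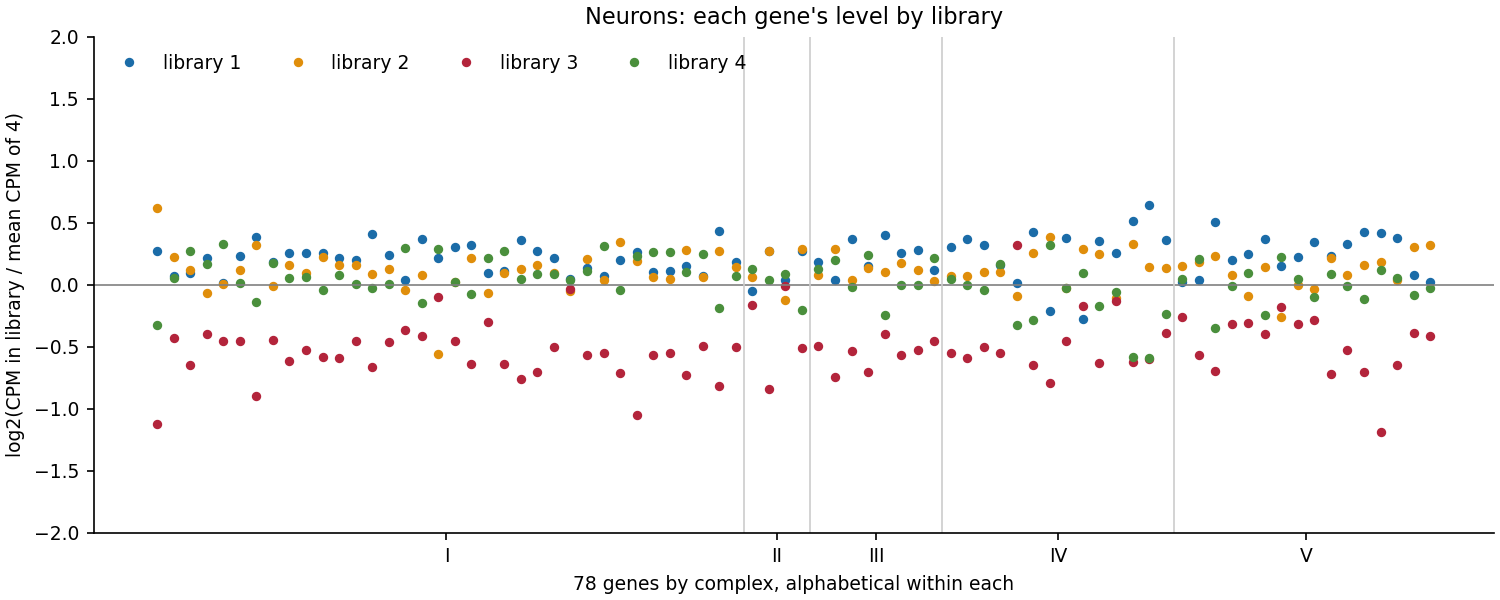
Level of 78 nuclear-encoded OXPHOS genes with at least 20 UMIs in neurons, each as log2 of its CPM in a library over its mean CPM in the 4 libraries (y axis), ordered by complex (x axis), with 1 coloured point per library. Points of library 3 lie lowest for 72 of the 78 genes.

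Neurons carried the largest share of OXPHOS transcripts of the 5 classes in each of the 4 libraries. The 81 genes made up 3.44%, 3.14%, 2.01% and 2.93% of neuronal UMIs in libraries 1 to 4 (2.88% ± 0.617, SD, n = 4; 3.17% without library 3). In oligodendrocytes the share was 1.60%, 1.44%, 1.13% and 1.45% (1.41% ± 0.197; 1.5% without library 3). In astrocytes it was 1.67%, 1.5%, 1.08% and 1.55% (1.45% ± 0.256; 1.57%). The neuronal share did not overlap with that of any other class, and its lowest value, in library 3, was above the highest value of each of the others. OPC held 1.59%, 1.22%, 1.04% and 1.54% (1.35% ± 0.263; 1.45%). Vascular cells held 1.51%, 1.45%, 1.06% and 1.68% (1.43% ± 0.263; 1.55%). The glial and vascular classes overlapped with each other, and their order by mean is within the spread between libraries.

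Within a library the neuronal share was 1.77 to 2.18 times that of oligodendrocytes (mean 2.03 ± 0.185, SD, n = 4), 1.86 to 2.10 times that of astrocytes (1.98 ± 0.121), 1.90 to 2.58 times that of OPC (2.15 ± 0.313) and 1.75 to 2.28 times that of vascular cells (2.02 ± 0.243). All 5 complexes had a mean ratio above 1 against each class. The highest were complex V over OPC (2.44 ± 0.362), complex I over vascular cells (2.41 ± 0.184) and complex V over oligodendrocytes (2.39 ± 0.115), and the lowest was complex II, succinate dehydrogenase, over astrocytes (1.46 ± 0.0624). Ribosomal protein genes, another abundant set of housekeeping transcripts, had ratios of 1.39 ± 0.0725 over oligodendrocytes, 2.55 ± 0.352 over astrocytes, 1.63 ± 0.213 over OPC and 0.900 ± 0.0883 over vascular cells.

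Neurons had more UMIs per cell than the other classes, and the share was therefore also taken in cells of 1000 to 2000 UMIs. In those cells neurons held 3.19%, 2.98%, 1.65% and 2.67% in libraries 1 to 4, oligodendrocytes 1.60%, 1.47%, 1.16% and 1.42%, and astrocytes 1.72%, 1.49%, 1.16% and 1.65%, the last from 4 cells. OPC held 1.77%, 1.19%, 0.988% and 1.77%. Vascular cells held 1.74%, 1.38%, 1.08% and 1.76%, with 1 and 2 cells in libraries 3 and 4. Neurons were again the highest within each library. Between libraries the values overlapped at this depth: library 3 neurons lay below astrocytes of library 1 and below OPC and vascular cells of libraries 1 and 4. Among neurons the share moved with depth: from cells of 1000 to 2000 UMIs to cells of 8000 or more it went from 3.19% to 3.54%, 2.98% to 3.32%, 1.65% to 2.2% and 2.67% to 3.24% in libraries 1 to 4, and it was 3.48%, 3.03%, 1.78% and 2.70% below 1000 UMIs. In single neurons of at least 1000 UMIs the median share was 3.30%, 3.01%, 1.86% and 2.80%, and the lowest and highest deciles of those cells in library 1 began at 2.45% and 4.35%. Barcodes with fewer than 200 genes, among which free RNA is common, had shares of 2.55%, 2.07%, 1.35% and 2.04%, between those of neurons and of the other classes in each library.

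Transcripts of OXPHOS genes encoded in mitochondrial DNA differed less between neurons and the other classes. The 11 such protein genes in the tables made up 1.34%, 1.25%, 1.30% and 1.11% of neuronal UMIs (1.25% ± 0.103, SD, n = 4), and the neuronal share was 1.11 ± 0.0559 times that of oligodendrocytes, 1.22 ± 0.129 times that of astrocytes, 1.65 ± 0.120 times that of OPC and 1.05 ± 0.0976 times that of vascular cells. The ratio of nuclear to mitochondrial transcripts was 2.56, 2.51, 1.55 and 2.65 in neurons, 1.26 ± 0.165 in oligodendrocytes, 1.40 ± 0.181 in astrocytes, 1.79 ± 0.424 in OPC and 1.21 ± 0.287 in vascular cells. Library 3 was the lowest in each class for this ratio, while its mitochondrial share in neurons lay within the range of the others. Cells were filtered on mitochondrial UMIs, so these values describe cells within that limit.

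**Figure D2:**
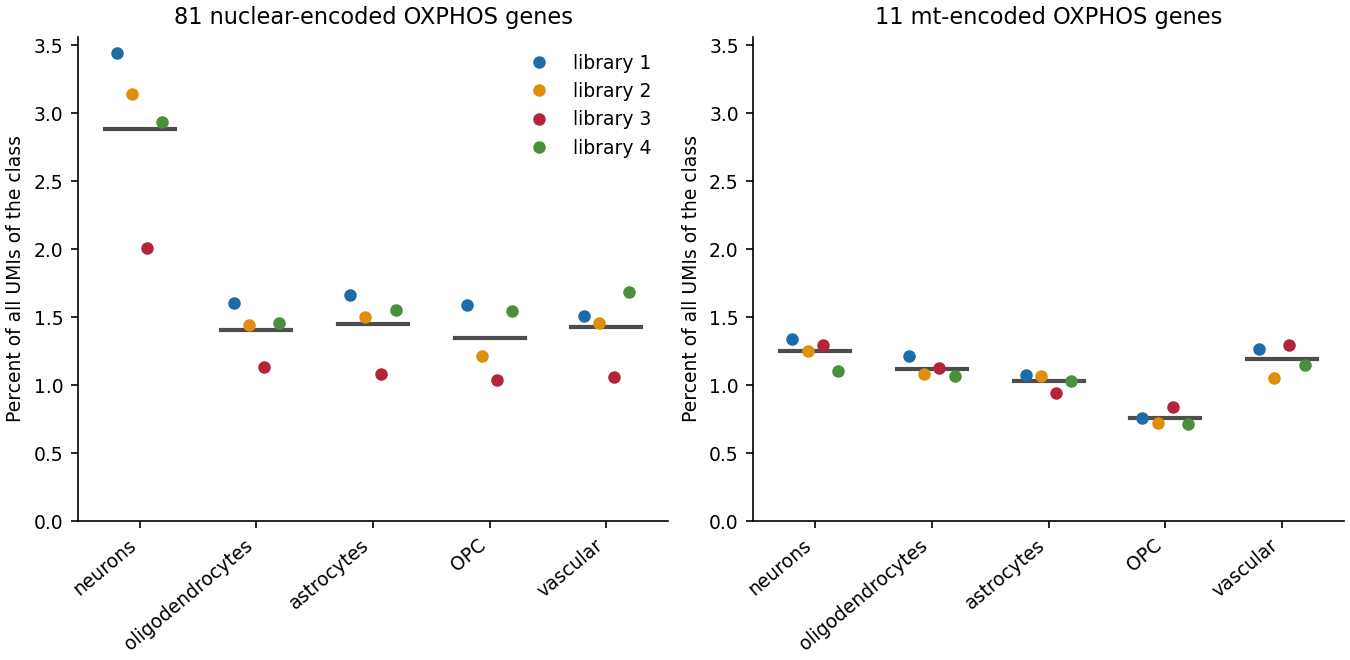
Percent of all UMIs of a class (y axis) that belonged to the 81 nuclear-encoded OXPHOS genes (left) and to 11 mitochondrially encoded OXPHOS protein genes (right), by class (x axis); points are libraries and lines the mean of 4. Neurons lie at 2.01% to 3.44% on the left, above every point of the other classes, and at 1.11% to 1.34% on the right, where they overlap with oligodendrocytes and vascular cells.

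Gene by gene, summed UMIs of neurons were compared with those of each other class by edgeR's quasi-likelihood test on 3674 genes that passed the low-count filter, 67 of the 81 OXPHOS genes among them. A gene was called at a Benjamini-Hochberg adjusted p below 0.05 over all 3674. Against oligodendrocytes 56 of the 67 were higher in neurons and 2 lower, where 43.2% of all genes tested were called higher and 33.9% lower. Against astrocytes 56 were higher and 0 lower (41.2% and 30.6% of all genes), with 58 at an unadjusted p below 0.05 in either direction. Unadjusted counts were taken for the OXPHOS genes only, here and below. Against OPC 62 were higher and 0 lower (32.9% and 23.5%; 62 unadjusted), and against vascular cells 55 and 0 (34.2% and 21.3%; 57 unadjusted). DESeq2 called 1 lower against oligodendrocytes and 0 lower against the other classes. The median log2 fold change was 0.76, 0.83, 1.33 and 1.20 over the OXPHOS genes and 0.17, 0.33, 0.28 and 0.45 over all genes, in the same order of classes. A total of 44 of the 67 were higher in neurons in all 4 comparisons, as were 18.4% of all genes tested. Ndufb11, Ndufs8 and Sdhc were higher in 0 of the 4, and Uqcr11 in 1.

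Scaling by total UMIs alone, without TMM factors, moved the median of all genes against oligodendrocytes from 0.17 to 0.66, against astrocytes from 0.33 to 0.57, against OPC from 0.28 to 0.03 and against vascular cells from 0.45 to 0.34. The OXPHOS median moved with it, to 1.25, 1.06, 1.08 and 1.10, and stayed above the median of all genes in each of the 4 comparisons. The share of all calls that were higher in neurons went from 56.0% to 69.3% against oligodendrocytes and from 58.3% to 47.6% against OPC. In cells of 1000 to 2000 UMIs, where 69 members and 6802 genes were tested, 36 members were higher and 2 lower against oligodendrocytes (29.9% and 21.7% of all genes), 31 higher against astrocytes (22.1%), 45 against OPC (15.5%) and 14 against vascular cells (5.79%). These counts come from sums of fewer cells, and in each class the share of members called higher stayed above that of all genes. Without library 3 the counts over all depths were 58, 57, 59 and 56. The share of all genes called in that setting is not given here.

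**Figure D3:**
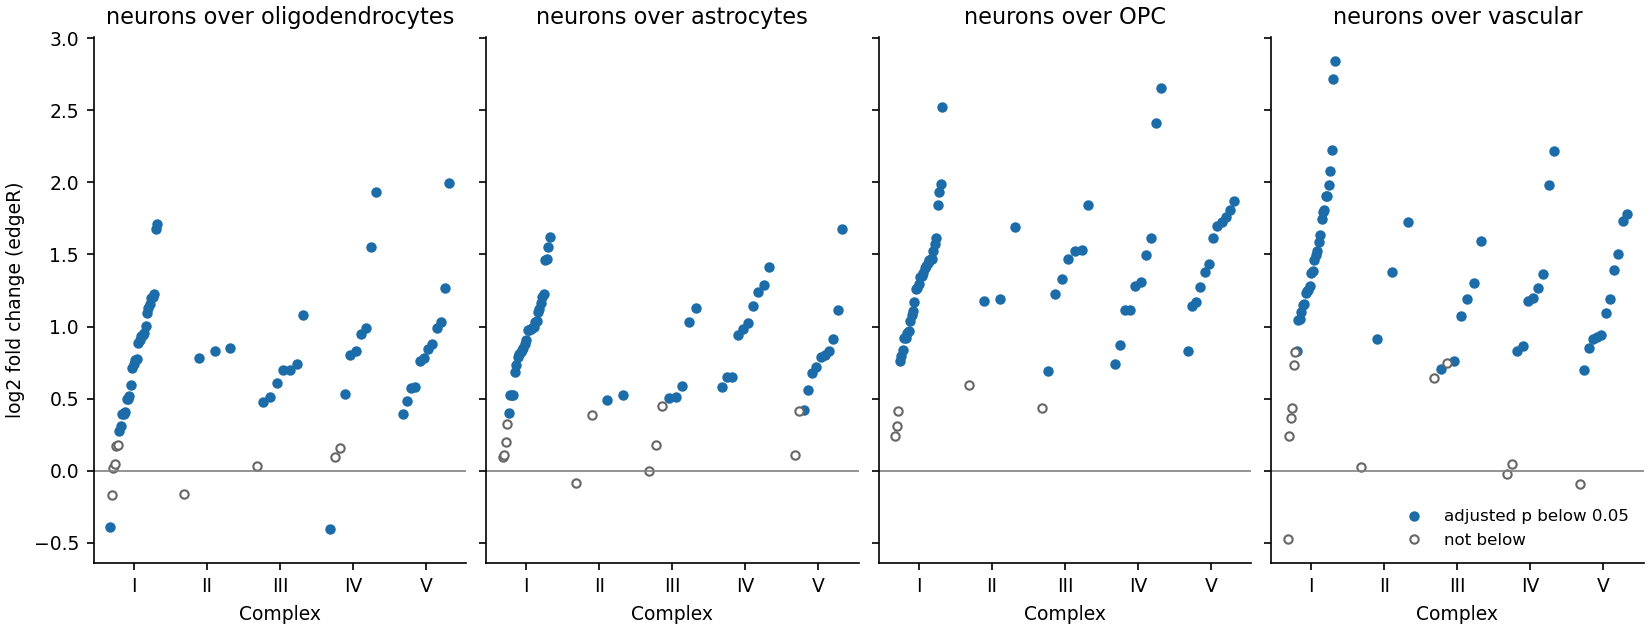
log2 fold change of 67 OXPHOS genes in neurons over each other class (y axis, edgeR), grouped by complex (x axis) and sorted within it; filled points passed an adjusted p of 0.05. Most genes of each complex lie above 0 in all 4 panels, and the only 2 filled points below 0 are Cox6a1 and Ndufa3 in the panel for oligodendrocytes.

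Complex I receives electrons from NADH, and 27 of its 33 tested genes were higher in neurons than in oligodendrocytes, 29 than in astrocytes, 30 than in OPC and 27 than in vascular cells. Ndufa4, the most abundant gene counted with complex I (12259 UMIs in all kept cells), was at 1289, 1129, 833 and 1284 CPM in neurons of libraries 1 to 4 and at 357, 209, 253 and 284 CPM in oligodendrocytes. The 2 sets of values did not overlap, and the log2 fold change was 1.68 ± 0.14 (SE; edgeR, adjusted p = 1.49e-33; higher in 4 of 4 libraries). Over astrocytes, at 450, 304, 251 and 344 CPM, its log2 fold change was 1.55 ± 0.17 (edgeR, adjusted p = 1.79e-18; 4 of 4).

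Ndufa12, an accessory subunit of the peripheral arm, was at 307, 253, 201 and 298 CPM in neurons and at 79.6, 54.4, 45.4 and 75.2 CPM in oligodendrocytes. The lowest neuronal value was over 2 times the highest of oligodendrocytes, and the log2 fold change was 1.71 ± 0.17 (edgeR, adjusted p = 3.77e-24; 4 of 4 libraries). Over astrocytes the other large rises were those of the accessory subunits Ndufa5 (1.62 ± 0.20), Ndufa6 (1.47 ± 0.20) and Ndufs6 (1.46 ± 0.28), each higher in 4 of 4 libraries with an edgeR adjusted p of at most 3.74e-07. Over OPC, Ndufc1 was at 522, 483, 266 and 460 CPM against 71.5, 74.9, 78.6 and 113 CPM. Its log2 fold change of 2.52 ± 0.33 (edgeR, adjusted p = 1.92e-13; 4 of 4) was the largest of complex I in this comparison, followed by those of Ndufa11 (1.99 ± 0.33) and the iron-sulfur subunit Ndufs7 (1.93 ± 0.31).

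In vascular cells several complex I genes had few UMIs. Ndufb6 had 6 UMIs there and Ndufb2 had 5, against 3743 and 2922 in neurons, with log2 fold changes of 2.84 ± 0.45 and 2.72 ± 0.50 (edgeR, adjusted p = 2.35e-09 and 2.84e-07; 4 of 4 libraries each). The electron-entry flavoprotein subunit Ndufv2 had 13 UMIs in vascular cells (2.08 ± 0.35), and Ndufc2 had 14, with 0 in libraries 3 and 4 (2.23 ± 0.35).

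Ndufa3 went the other way against oligodendrocytes. It was at 522, 498, 215 and 362 CPM in neurons and at 517, 517, 258 and 332 CPM in oligodendrocytes, so that neurons were higher in 2 libraries and lower in the other 2. The fit gave a log2 fold change of -0.39 ± 0.12 (edgeR, adjusted p = 0.0019), which became 0.10 with total UMIs as the only scaling. Its call rests on that scaling.

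Complex II, which is also an enzyme of the TCA cycle, had 3 of 4 genes higher in neurons than in oligodendrocytes, OPC and vascular cells and 2 of 4 than in astrocytes. Sdhb, its iron-sulfur subunit and most abundant gene (3781 UMIs), was at 397, 396, 183 and 337 CPM in neurons, and 174, 175, 74.1 and 185 CPM in oligodendrocytes. Library 3 neurons fell within the range of oligodendrocytes of the other libraries, while within each library neurons were higher. Sdhc, a membrane anchor, was at 174, 156, 169 and 180 CPM in neurons and at 126, 181, 124 and 178 CPM in oligodendrocytes, and these overlapped. It passed the test in none of the 4 comparisons, and in neurons its level varied little between libraries (170 ± 10.4 CPM, SD, n = 4).

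Complex III passes electrons to cytochrome c, and 7, 5, 7 and 6 of its 8 genes were higher in neurons than in oligodendrocytes, astrocytes, OPC and vascular cells. Uqcrq, the most abundant (5871 UMIs), was at 573, 538, 384 and 613 CPM in neurons and at 252, 251, 196 and 335 CPM in oligodendrocytes, which did not overlap. Uqcrh, the hinge subunit that binds the cytochrome c1 protein, was at 558, 499, 319 and 458 CPM in neurons against 313, 281, 213 and 215 CPM in oligodendrocytes. The small subunit Uqcr11 was at 250, 298, 146 and 279 CPM in neurons and at 219, 166, 124 and 226 CPM in oligodendrocytes, and was higher only against 1 class. The cytochrome c1 gene itself, Cyc1, which the naming rule does not take, was higher than in oligodendrocytes by 1.13 ± 0.14 on the log2 scale (edgeR, adjusted p = 2.25e-15).

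Complex IV, cytochrome c oxidase, had 7, 10, 10 and 8 of 10 tested genes higher in neurons, in the same order of classes. Cox5a, a subunit on the matrix side, was at 741, 603, 380 and 572 CPM in neurons and at 154, 130, 90.8 and 92.3 CPM in oligodendrocytes. Its lowest neuronal library was over 2 times the highest oligodendrocyte library, and the log2 fold change was 1.93 ± 0.14 (edgeR, adjusted p = 6.47e-42; 4 of 4). In OPC Cox5a was at 143, 112, 59.0 and 113 CPM from 16 UMIs (2.65 ± 0.30; edgeR, adjusted p = 2.36e-17) and in vascular cells at 150, 174, 0 and 169 CPM from 15 UMIs (2.22 ± 0.33; edgeR, adjusted p = 1.95e-10), each lower than neurons in 4 of 4 libraries. Cox7b was at 855, 752, 389 and 400 CPM in neurons and 189, 172, 134 and 137 CPM in oligodendrocytes (1.55 ± 0.14; edgeR, adjusted p = 1.21e-28; 4 of 4). For this gene library 4 was nearly as low as library 3 in neurons.

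The common isoforms of complex IV did not all rise alike. Cox4i1, the most abundant of the nuclear-encoded OXPHOS genes (15363 UMIs), was at 1603, 1362, 888 and 1345 CPM in neurons, and its log2 fold change over oligodendrocytes was 0.16 with an edgeR adjusted p of 0.257. Cox6a1 was at 708, 680, 434 and 714 CPM in neurons and at 623, 583 and 694 CPM in libraries 2 to 4 of oligodendrocytes, whose library 1 lay between neuronal libraries 2 and 1, with overlapping values and a fitted log2 fold change of -0.40 ± 0.12 (edgeR, adjusted p = 0.00186) that became 0.09 with total UMIs as the only scaling. Over astrocytes Cox6a1 was higher by 0.94 ± 0.18 (edgeR, adjusted p = 7.23e-07; 4 of 4 libraries). In vascular cells it was at 598, 625, 594 and 1098 CPM, and neurons did not differ from them past the threshold (0.05 ± 0.23; edgeR, adjusted p = 0.872). Cox6b1, Cox7a2 and Cox8a were higher in neurons than in each of the 4 classes, by 0.53 to 1.41 on the log2 scale.

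Complex V makes ATP, and all 12 of its tested genes were higher in neurons than in oligodendrocytes and OPC, 10 than in astrocytes and 11 than in vascular cells. Atp5g3, a gene for the proton-carrying c subunit, was at 766, 659, 528 and 677 CPM in neurons and 135, 112, 143 and 123 CPM in oligodendrocytes. No library of oligodendrocytes came near the neuronal range, and the log2 fold change of 1.99 ± 0.14 was the largest of the 67 genes in that comparison (edgeR, adjusted p = 4.33e-44; 4 of 4). It was also the largest over astrocytes, at 212, 172, 135 and 204 CPM (1.68 ± 0.19; edgeR, adjusted p = 2.99e-17; 4 of 4). Atp5g1, which encodes the same mature protein, supplied 8.45% ± 1.08 (SD, n = 4) of the UMIs of both genes in neurons and 9.98% ± 4.46 in oligodendrocytes. Atp5b, the catalytic beta subunit and the most abundant complex V gene (10504 UMIs), was at 988, 1093, 651 and 1112 CPM in neurons and at 692, 521, 495 and 845 CPM in vascular cells, where library 3 neurons fell inside the vascular range.

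Genes around the respiratory chain differed between classes in more than 1 way. Of 15 tested TCA cycle genes, 12 were higher in neurons than in oligodendrocytes, 6 than in astrocytes, 10 than in OPC and 8 than in vascular cells. Over all genes 43.2%, 41.2%, 32.9% and 34.2% were higher in these comparisons, so the count against astrocytes lay near that of all genes. In each comparison the most abundant was Mdh1 (2.67 ± 0.15 over oligodendrocytes, edgeR adjusted p = 3.14e-71). Mdh1 encodes the cytosolic malate dehydrogenase, so these counts include a gene that acts outside the mitochondrial cycle. Genes of the list that fell against astrocytes included Cs, the citrate synthase (-0.80), and Idh2 (-3.09). Of 11 tested genes of glycolysis and lactate handling, 10, 6, 8 and 8 were higher, led by the neuronal enolase Eno2 at 677, 778, 816 and 940 CPM in neurons against 13, 24.2, 23.9 and 30.8 CPM in oligodendrocytes. Aldoc, an aldolase known from astrocytes, was at 234, 193, 109 and 136 CPM in neurons and 3814, 3359, 2791 and 3018 CPM in astrocytes, a difference of -4.48 ± 0.14 (edgeR, adjusted p = 2.24e-216). The glucose transporter Slc2a1 was lower in neurons than in vascular cells, astrocytes and oligodendrocytes. These genes therefore rose and fell in the same comparisons in which no tested OXPHOS gene fell against astrocytes.

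Atpif1, the inhibitor that binds complex V and is not taken by the naming rule, was higher in neurons than in oligodendrocytes by 2.65 ± 0.15, than in astrocytes by 2.41 ± 0.20, than in OPC by 1.73 ± 0.22 and than in vascular cells by 2.14 ± 0.29 on the log2 scale (edgeR, adjusted p at most 8.41e-13). Its values were 1055, 980, 650 and 951 CPM in neurons and 107, 121, 100 and 127 CPM in oligodendrocytes. Of 8 tested assembly factors 6, 5, 5 and 5 were higher, with Cox14, Uqcc2 and Cox17 in each comparison, and 2 (Ndufaf4 and Cox20) were lower than in astrocytes. Of 8 carriers and energy buffers 5, 5, 7 and 5 were higher, among them the adenine nucleotide carrier Slc25a4 and the outer membrane channel Vdac1, while the creatine kinase Ckb was lower than in oligodendrocytes (-1.07), astrocytes (-1.78) and OPC (-1.20) and higher than in vascular cells (1.94). Of 23 tested genes of the mitochondrial ribosome, 13, 12, 11 and 8 were higher, the last a share near that of all genes against vascular cells, and 1 was lower, against oligodendrocytes. Of 7 tested mitochondrially encoded genes, 1, 1, 6 and 3 were higher, and mt-Cytb (-0.72) and mt-Co1 (-0.97) were lower than in oligodendrocytes.

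Regulators of mitochondrial gene expression were mostly too low to test, and 2 of 11 passed the filter. Ppargc1a, the coactivator PGC-1 alpha, was at 41.8, 38.1, 47.4 and 49.8 CPM in neurons and 256, 92.6, 193 and 242 CPM in astrocytes, with 0 UMIs in oligodendrocytes and in vascular cells. Astrocytes were above neurons in all 4 libraries (-2.35 ± 0.27; edgeR, adjusted p = 2.18e-17), the reverse of the OXPHOS genes. Polg, the mitochondrial DNA polymerase, was lower in neurons than in astrocytes (-1.31 ± 0.57; edgeR, adjusted p = 0.0324) and OPC.

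Neurons were divided further by transmitter and by subtype markers: GABAergic neurons entered a subtype with at least 2 UMIs of its 1 or 2 marker genes and at least 2 times those of every other subtype, and glutamatergic neurons formed 1 subtype. The marker pairs came from genes that led clusters in these same data. The share of OXPHOS UMIs was highest in the cells gated by Lhx8 and Rorb, at 3.98%, 4.11%, 2.48% and 3.52% in libraries 1 to 4, from 37 cells. It was lowest in those gated by Prkcd, at 2.49%, 2.62%, 2.00% and 2.45% from 31 cells, by Slc17a8, at 2.87%, 2.77%, 1.69% and 2.34%, and by Ppp1r1b and Crym, at 2.75%, 2.78%, 1.71% and 2.49%. Between them lay Crh and Wif1 (mean 3.26% ± 0.723, SD, n = 4), the glutamatergic neurons (3.13% ± 0.489), Zic1 and Zic4 (3.10% ± 0.649), Tac2 and Ebf1 (3.05% ± 0.650), Cck and Greb1 (2.91% ± 0.540), Sst and Npy (2.82% ± 0.722), Six3 and Ifi27l2a (2.72% ± 0.546), Avp and Gal (2.68% ± 0.945) and Tshz1 and Foxp2 (2.67% ± 0.559). The low value of library 3 widened every SD, and neighbours in this order did not differ beyond it. Without library 3 the Lhx8 and Rorb cells were at 3.87% and the Prkcd cells at 2.52%.

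Ppp1r1b and Crym cells were below Crh and Wif1 cells in each library. Median depth differed among subtypes, from 2339 UMIs in Tshz1 and Foxp2 cells to 5873.5 in Avp and Gal cells. Lhx8 and Rorb (5258), Crh and Wif1 (4806.5), glutamatergic (4697), Tac2 and Ebf1 (4845) and Cck and Greb1 cells (5745) were deep, with higher shares. Ppp1r1b and Crym (3106), Slc17a8 (3692), Sst and Npy (3734), Six3 and Ifi27l2a (3894) and Tshz1 and Foxp2 cells were shallower, with lower shares. Others broke this order: Prkcd cells (5618) and Avp and Gal cells, the deepest, had lower shares, and Zic1 and Zic4 cells were shallower (3334.5) with a higher share. The part of depth in this order was not tested. Glutamatergic and GABAergic neurons differed little, with 3.32%, 3.30%, 2.41% and 3.49% against 3.46%, 3.14%, 2.00% and 2.93%, and their order changed between libraries. Of the 81 genes, 4, 12, 30, 26 and 9 were higher in glutamatergic neurons in 0, 1, 2, 3 and 4 libraries. The same counts were not taken over all genes, so no excess is read from them. The 2 transmitter classes were not tested against each other, because libraries 2, 3 and 4 held 19, 11 and 15 glutamatergic cells, under the minimum of 20.

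**Figure D4:**
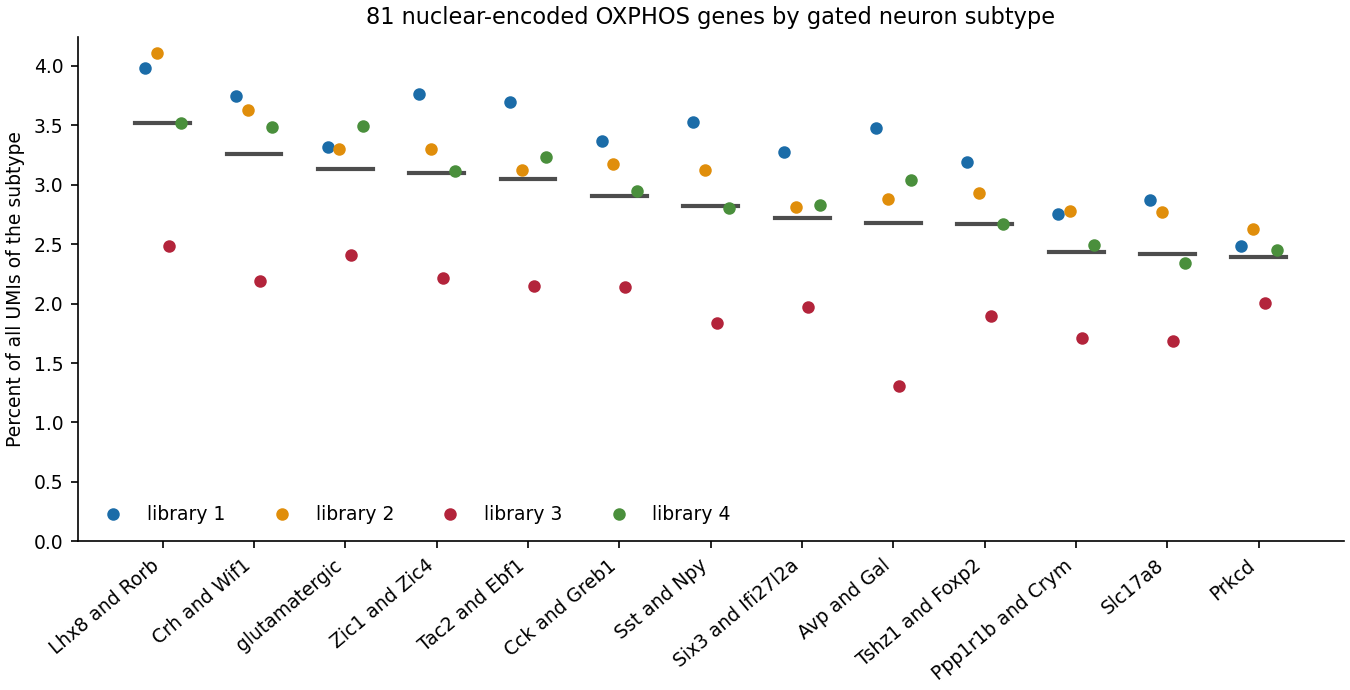
Percent of all UMIs of a neuron subtype (y axis) that belonged to the 81 nuclear-encoded OXPHOS genes, by subtype marker genes (x axis), sorted by mean; points are libraries and lines the mean of 4. Library 3 is the lowest point of every subtype, and means run from 3.52% to 2.39%.

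A fit of 3878 genes, 70 OXPHOS genes among them, covered the 10 subtypes with at least 10 cells in at least 3 libraries, and left out the Avp and Gal, Lhx8 and Rorb, and Prkcd cells. Across the subtypes 32 of the 70 OXPHOS genes differed (33.5% of all genes did), 14 of 35 in complex I, 0 of 4 in complex II, 4 of 8 in complex III, 8 of 11 in complex IV and 6 of 12 in complex V. The count was 19, 27, 22 and 15 without library 1, 2, 3 or 4, 2 without the library block and 12 of 68 among cells of 2000 to 6000 UMIs, where 22.8% of all genes differed. For the fits without a library or the block the share of all genes is not given here. Those counts do not show whether the members changed more than other genes. The differences were small beside those between classes. The largest range of fitted levels among the 32 was 1.15 on the log2 scale, for the complex III gene Uqcrb (edgeR, adjusted p = 0.0116), and wide ranges were also found for Ndufa12 at 1.06 (0.00118), Uqcrh at 0.90 (0.000105), Cox5a at 0.88 (0.00021), Ndufa8 at 0.87 (0.000261), Ndufc1 at 0.85 (0.000864), Ndufb8 at 0.82 (0.0246), Ndufv3 at 0.81 (0.0248) and Ndufc2 at 0.81 (0.00114). Of these named genes, Ppp1r1b and Crym cells were the lowest subtype for 8 and Slc17a8 cells for Uqcrh. Crh and Wif1 cells were the highest for 4, Zic1 and Zic4 cells for 4, and Cck and Greb1 cells for Ndufa8.

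Each subtype was then set against the mean of the other 9 in the same fit. Ppp1r1b marks striatal-type projection neurons, and in Ppp1r1b and Crym cells 21 of the 70 OXPHOS genes were lower (13.1% of all genes) and 0 were higher (15.9%). At an unadjusted p below 0.05 there were 27. The median was -0.18 over the OXPHOS genes and -0.008 over all genes. DESeq2 called 20 lower and 0 higher. In the values that follow, CPM of 1 other subtype are given for scale. That subtype differs by gene and was taken from those with high levels of the gene. The gap to it therefore does not stand for the other subtypes. The log2 changes and p-values are against the mean of the other 9. Uqcrb was at 152, 75.2, 63.5 and 122 CPM there and at 400, 239, 135 and 193 CPM in Zic1 and Zic4 cells, lower in each library with ranges that overlapped, and its log2 change was -0.76 ± 0.20 (edgeR, adjusted p = 0.00189). Uqcrb shared 40.6% of the windows in its last 300 bases with other genes, so reads could have been split. Ndufa12 was at 157, 183, 116 and 186 CPM against 341, 315, 226 and 475 CPM in Crh and Wif1 cells, lower in each library. Against the mean of the other 9 its log2 change was -0.65 ± 0.17 (edgeR, adjusted p = 0.00262). Cox5a was at 485, 484, 233 and 373 CPM against 870, 878, 418 and 783 CPM in Crh and Wif1 cells (-0.53 ± 0.12; edgeR, adjusted p = 0.000402), lower in each library. Ndufb8 (-0.54), Ndufa8 (-0.52), Ndufc1 (-0.49), Ndufv3 (-0.48), Cox7b (-0.46) and Cox6b1 (-0.43) were lower as well, and by complex the 21 were 10, 0, 2, 5 and 4.

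The lower levels in Ppp1r1b and Crym cells were also looked at with depth made more alike: 15 of 68 were lower among cells of 2000 to 6000 UMIs (10.8% of all genes), and 3 were lower with cells thinned to 1000 UMIs. Without library 1, 2, 3 or 4 the count was 8, 21, 18 and 14, and without the library block it was 3. For the thinned cells and for these fits the share of all genes called is not given here, so the counts describe the members only. In the same comparison 3 of 7 mitochondrially encoded genes fell, Slc25a4 (-0.34) and Vdac2 (-0.67) fell, and Ckb (0.65) and Slc25a5 (0.57) rose. Of 13 tested genes of glycolysis and lactate handling 3 rose, Ldha (0.48) and Ldhb (0.39), which encode lactate dehydrogenase subunits, and Pkm (0.35), which encodes pyruvate kinase, while 1 fell, Aldoc (-3.76 ± 0.41; edgeR, adjusted p = 3.42e-12), the largest change in that list.

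Slc17a8 encodes the vesicular glutamate transporter VGLUT3, and in the GABAergic cells gated by it 9 OXPHOS genes were lower (2.86% of all genes) and 0 higher (3.61%). At an unadjusted p below 0.05 there were 28. The median was -0.27 over the OXPHOS genes and 0.005 over all genes. DESeq2 called 7 lower. In the values that follow, CPM of 1 other subtype are given for scale. As above, that subtype differs by gene and was taken from those with high levels of the gene. The log2 changes and p-values are against the mean of the other fitted subtypes. Cox4i1 was at 1152, 947, 686 and 1001 CPM there and 1780, 1593, 887 and 1633 CPM in Crh and Wif1 cells, lower in each library (-0.46 ± 0.10; edgeR, adjusted p = 0.000447). Ndufa4 was at 1031, 867, 454 and 828 CPM against 1306, 1256, 1064 and 1253 CPM in Sst and Npy cells, lower in each library. Against the mean of the other fitted subtypes its log2 change was -0.53 ± 0.10 (edgeR, adjusted p = 0.000225). Uqcrh was at 415, 381, 244 and 272 CPM against 764, 728, 368 and 582 CPM in Crh and Wif1 cells (-0.52 ± 0.15; edgeR, adjusted p = 0.0171). Cox6a1 fell by 0.46 on the log2 scale, Cox8a by 0.45 and Atp5b and Atp5g3 by 0.36 each. Cyc1 fell by 0.83, the carrier Slc25a5 by 1.62 and 4 of 7 mitochondrially encoded genes fell. Without library 1, 2, 3 or 4 the count was 5, 9, 5 and 2 and without the library block 1, with no share of all genes beside them. The cells were too few for a fit at matched depth.

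Crh encodes corticotropin-releasing hormone, and Crh and Wif1 cells had 15 OXPHOS genes higher (5.60% of all genes) and 0 lower (4.28%). At an unadjusted p below 0.05 there were 31, and 67 of 70 had a fold change above 0. These 2 counts were taken for the OXPHOS genes only. The median was 0.23 over the OXPHOS genes and 0.014 over all genes. DESeq2 called 12 higher and 0 lower. Uqcrh (0.48 ± 0.10; edgeR, adjusted p = 0.000667), Cox5a (0.44 ± 0.10; edgeR, adjusted p = 0.00114) and Ndufa12 (0.53 ± 0.13; edgeR, adjusted p = 0.00317) were among them, as were Ndufc1 (0.46), Ndufa6 (0.42), Uqcr10 (0.41), Cox6c (0.36) and Cox4i1 (0.25). These cells had a median of 4806.5 UMIs, and among cells of 2000 to 6000 UMIs 0 members were called, where 1.58% of all genes were called higher. Without library 1, 2, 3 or 4 the count was 10, 9, 12 and 4, and without the library block it was 0, with no share of all genes beside these counts. Mdh1 (0.40), Cyc1 (0.42), Ldhb (0.56) and Aldoc (1.32) were higher too.

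Other subtypes showed few or no calls. In Cck and Greb1 cells 4 OXPHOS genes were higher (5.62% of all genes), namely Ndufa8 (0.45), Ndufs8 (0.42), Cox6a1 (0.35) and Atp5d (0.34), and 2 were lower (3.17%), Ndufv1 (-0.55) and Ndufb10 (-0.40), shares near those of all genes. In the same cells 7 of 7 tested mitochondrially encoded genes were higher, by 0.39 to 0.56. Zic1 and Zic4 cells had 2 higher (2.14%), Ndufc2 (0.46) and Ndufa13 (0.40). By edgeR 0 were called in either direction in Six3 and Ifi27l2a cells (1.06% of all genes higher and 0.361% lower), Sst and Npy cells (2.32% and 0.516%), Tac2 and Ebf1 cells (2.97% and 1.39%), Tshz1 and Foxp2 cells (2.19% and 0.309%) and glutamatergic neurons (3.07% and 2.35%). At an unadjusted p below 0.05 the counts were 5, 4, 12, 9 and 7, and DESeq2 called 1 in Tac2 and Ebf1 cells and 0 in the others. The counts in Cck and Greb1 and in Zic1 and Zic4 cells fell to 0 to 2 when a library was left out and to 0 without the library block.

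Several OXPHOS subunits have isoforms with restricted tissue patterns. Cox6a2 is the form of subunit VIa known from heart and skeletal muscle and from fast-spiking interneurons, and Cox6a1 is the form of most tissues. Cox6a2 lies at chr7:128205435-128206387 (GRCm38, minus strand), and its exons overlap Itgad, an integrin gene on the opposite strand; counting by strand is not given in the sources used here. Of 181 Cox6a2 UMIs in kept cells, 177 were in neurons, in 92 of 2537 cells, and 4 in oligodendrocytes, in 4 of 928 cells. Itgad showed another pattern, with 2 UMIs in neurons and 39 in oligodendrocytes. Astrocytes, OPC and vascular cells had 0 Cox6a2 UMIs, which allows up to 8.09, 19.4 and 28.8 CPM at 3 counts, a limit that covers counting error only.

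Neurons had 76, 35, 35 and 31 Cox6a2 UMIs in libraries 1 to 4, or 18.7, 17.3, 23.1 and 14.7 CPM (18.4 ± 3.49, SD, n = 4). Library 3 was the highest here, unlike for most OXPHOS genes. The Sst and Npy cells held 54 of the UMIs, 21, 16, 5 and 12 by library, at 38.5, 116, 60.5 and 55.7 CPM (67.6 ± 33.3). They were found in 31 of 235 cells, or 13.2% (95% Clopper-Pearson interval 9.14% to 18.2%), at a median depth of 3734 UMIs. Other gated subtypes held 0 to 8 UMIs. Crh and Wif1 cells, which were deeper, had a UMI in 6 of 132 cells (4.55%, interval 1.69% to 9.63%), and Cck and Greb1 cells in 5 of 120 (4.17%, 1.37% to 9.46%). None was seen in 155 Ppp1r1b and Crym cells, which allows a share of up to 1.94%, in 75 Slc17a8 cells (up to 4%) or in 31 Prkcd cells (up to 9.68%). These limits apply to cells with a UMI and not to cells that express the gene. As a background, oligodendrocytes had a UMI in 0.431% of cells (interval 0.118% to 1.10%) at a median depth of 1387.5 UMIs. Neurons in no subtype held 90 UMIs in 40 of 1198 cells. Sst encodes somatostatin and Npy neuropeptide Y, and Cox6a2 was at 56.1 CPM in the 152 cells with more Sst and 55.3 CPM in the 77 with more Npy.

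**Figure D5:**
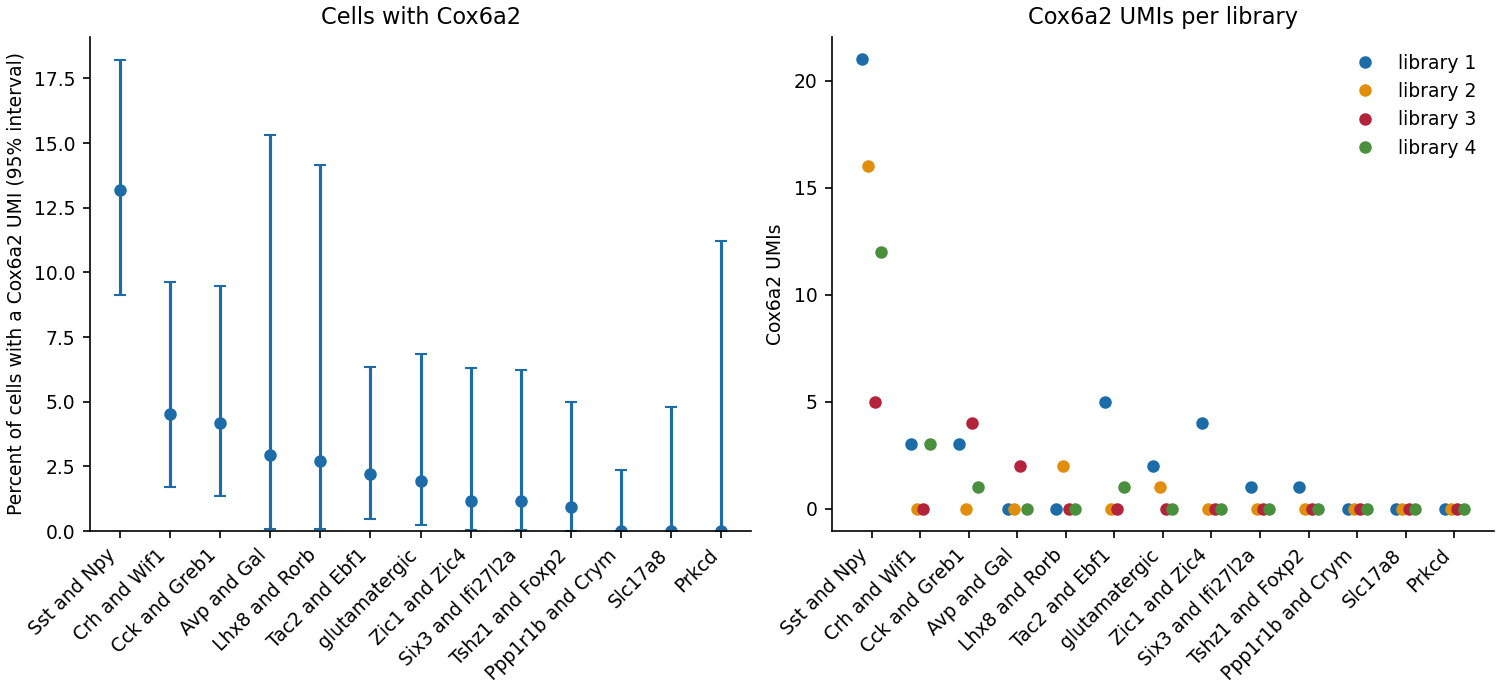
Left, percent of cells of each neuron subtype with a Cox6a2 UMI (y axis) with its 95% Clopper-Pearson interval; right, Cox6a2 UMIs (y axis) per library, by subtype marker genes (x axis). Sst and Npy cells had 31 of 235 cells with a UMI (13.2%) and 5 to 21 UMIs in every library, and the other subtypes 0 to 5 UMIs per library.

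Cox6a2 was too low for the filter of the main test. In a fit without that filter it was called across subtypes and as higher in Sst and Npy cells than in the mean of the others. The sums of the other subtypes held few or no UMIs of it, so no p-value is given and the counts above carry the result. Its CPM in Sst and Npy cells was the highest of the fitted subtypes in libraries 2, 3 and 4. In library 1 the Zic1 and Zic4 cells were higher, at 42.1 CPM from 4 UMIs in 1 cell. Of the UMIs of Cox6a1 and Cox6a2 together, Cox6a2 supplied 2.57%, 2.48%, 5.04% and 2.02% in neurons (3.03% ± 1.36, SD, n = 4) and 4.95%, 15.8%, 11.6% and 7.32% in Sst and Npy cells (9.93% ± 4.81; 7.38% of the UMIs of all libraries pooled, and a mean of 15.1% in cells thinned to 1000 UMIs). Each UMI counts 1 captured molecule, so this share needs no correction for length, but the capture of the 2 transcripts may differ. Cox6a1 remained the main form in every library of these cells.

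Pvalb, the parvalbumin gene of fast-spiking cells, was detected in 23 GABAergic neurons, 16, 2, 3 and 2 by library, too few for a test. These held 20 Cox6a2 UMIs, 12, 2, 6 and 0 by library, in 6 cells, and GABAergic neurons without a Pvalb UMI held 154 in 84 of 2294 cells. The OXPHOS share of the Pvalb-positive cells was 4.84%, 4.88%, 3.92% and 3.74%, against 3.43%, 3.13%, 1.99% and 2.92% without Pvalb, higher in each library, although 3 of the values rest on 2 or 3 cells. Within the Sst and Npy cells 5 had a Pvalb UMI, all from library 1, and held 8 Cox6a2 UMIs, while the 230 without held 46, 13, 16, 5 and 12 by library. Of the markers of muscle, where Cox6a2 is best known, the skeletal list gave 20 UMIs (44.3 CPM) in the 92 neurons with Cox6a2, 16 of them of Acta1, and 228 UMIs (24.6 CPM) in the 2445 without, 213 of them of Acta1. The cardiac list gave 0 and 8 UMIs. The part of these transcripts in the Cox6a2 values was not tested. Over 39 sums of subtype and library, the genes whose level was most like that of Cox6a2 were Crhbp (Pearson r = 0.74), Sox6 (0.71), Moxd1 (0.69), Gldn (0.66) and A330050F15Rik (0.63); sums of 1 library share its depth.

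The other restricted isoforms were rare. Cox6b2, known from testis, had 53 UMIs in kept cells, 22 in neurons, 12 in oligodendrocytes, 6 in astrocytes, 6 in OPC and 1 in vascular cells. It supplied 0.330% ± 0.117 (SD, n = 4) of the UMIs of Cox6b1 and Cox6b2 in neurons, 2.73% ± 2.54 in oligodendrocytes, 4.30% ± 3.23 in astrocytes and 6.40% ± 5.08 in OPC. In the fit without the filter it was lower in neurons than in oligodendrocytes (-1.74 ± 0.67), astrocytes (-2.55 ± 0.92) and OPC (-3.22 ± 0.97), with edgeR adjusted p of 0.0248, 0.0204 and 0.00619, the opposite direction to Cox6b1. It had failed the filter, and these values rest on the few UMIs listed above and add little to them. Cox7a1, a muscle form, had 46 UMIs, 42 in neurons, and supplied 0.839% ± 0.244 of the UMIs of Cox7a1 and Cox7a2 there. Cox7b2 had 18 UMIs, 15 in neurons.

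Ndufa4l2, known as a hypoxia-induced relative of Ndufa4 and from pericytes, had 8 UMIs, 4 of them in the 82 vascular cells, where it supplied 4 of 37 UMIs of the pair (10.8%, 95% Clopper-Pearson interval 3.03% to 25.4%). In neurons it had 3 UMIs of 11501. The vascular UMIs were all in libraries 1 and 2, 2 in endothelial and 2 in mural cells. The gene failed the low-count filter, and 8 UMIs are too few for a test between classes. Cox4i2, a lung and smooth muscle form, had 8 UMIs in all barcodes and 0 in kept cells. Cox7a2l, which acts in supercomplex assembly and is expressed widely, supplied 24.9% ± 4.71 of the UMIs of Cox7a2 and Cox7a2l in neurons and 44.0%, 46.2%, 0% and 50% in vascular cells. Its own level in vascular cells, 206, 208, 0 and 338 CPM, overlapped with that in neurons, 213, 166, 163 and 171 CPM.

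A total of 14 OXPHOS genes were not tested between classes and 11 of them not among subtypes: Atp5g1, Atp5l, Atp5s, Atp5sl, Cox4i2, Cox6a2, Cox6b2, Cox7a1, Cox7b2, Ndufa4l2 and Ndufb4, and between classes also Cox7c, Ndufs3 and Ndufs5. Copies elsewhere in the genome limit some of these counts. Of 80 members with a known transcript end, 20 shared at least 1 window of 50 bases in their last 300 with another gene, and more than 50% of the windows were shared in Cox7c (73.3%), Atp5l (70.1%), Ndufs5 (54.6%) and Ndufs3 (53.0%). Exons of 22 members overlapped a gene on the opposite strand and those of 1, Atp5o, a gene on the same strand.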

How the data were processed

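Drop-seq libraries were made from BNST punches of 4 pools of 6 mice. The deposited tables hold raw UMI counts per gene and barcode. Per the submitters' processing notes, bcl2fastq 2.18.0.12, STAR 2.4.2a and Picard 2.2.4 were used with mm10/GRCm38; the annotation and the counting strand are not given in the sources used here. From these counts, cells were filtered, doublets called with Scrublet in scanpy 1.11.5 (expected rate 0.05), classes and subtypes gated by marker UMIs, and counts summed per library and group with at least 10 cells. The sums went into the quasi-likelihood F-test of edgeR 4.0.16 (R 4.3.3), after TMM scaling and filterByExpr and with Benjamini-Hochberg adjustment over all genes and library as a block, since groups of 1 library come from the same mice and the same beads. A subtype was set against the mean of the other fitted subtypes. Each SE was obtained by dividing the log2 fold change by the root of its F value. DESeq2 1.42.0 was an alternative. Libraries are separate pools, and the block takes up shifts that all groups of a pool share. The p-values therefore rest on how far differences between groups varied among the 4 pools. That spread was estimated over all groups of a fit. Levels are CPM, that is UMIs of a gene per 1e+06 UMIs of the group. The scripts were tested on simulated data. Tables and figures were made with pandas 2.3.3, matplotlib 3.10.9, scipy 1.17.1 and numpy 2.4.6 under Python 3.11.15.

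The genes, marker lists, pathway lists and tests were chosen with earlier results of these data known, and subtype markers came from clusters of the same cells, so the lists give no independent support. Genes named were the 5 members with the largest change in each direction among those called and changed alike in all libraries, the 10 called members with the widest range across subtypes, the members with the most UMIs in each complex, isoform pairs, and the most abundant called genes of the other pathway lists; a few members with no or few calls, such as Sdhc and Uqcr11, were named after their values were seen. Some results that the rule would name are not reported here. Where 0 UMIs were seen, the limit is 3 counts of the total. Intervals are 95% Clopper-Pearson, and both cover counting error only. Alternatives changed the gene minimum, mitochondrial limit, doublet removal, gates, depth, normalisation, low-count filter, test and block, and left out each library.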

Additional observations from a re-analysis of the deposited data

Results flagged for a closer look

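Of 45 sets of 4 library values that were searched, 2 had a sample far from the others, and chance flags about 1 in 20 such sets, or 2.25 here. The complex V genes made up 0.228% of UMIs in vascular cells of library 3, from 13 cells, and 0.394%, 0.375% and 0.389% in libraries 1, 2 and 4. The 81 genes made up 2.19% of UMIs in Crh and Wif1 cells of library 3, from 20 cells, and 3.75%, 3.63% and 3.48% in the others. Both low values were in library 3, the library that was lowest for most OXPHOS genes in neurons.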

How the results depend on the processing

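Of the values that answer a comparison, 662 stayed within 1.5 times or within the spread between libraries and 70 moved; of those for single genes 1562 kept their call, 327 lost it, 4 gained it and 21 reversed. The counts of members higher in neurons moved by more than 1.5 times only in cells of 1000 to 2000 UMIs, a band chosen after seeing the data (36 against oligodendrocytes, 31 against astrocytes and 14 against vascular cells). The 2 members lower than in oligodendrocytes became 1 with at most 5% mitochondrial UMIs (Ndufa3) or DESeq2 (Cox6a1) and 1 with no low-count filter, where both lost their call and Cox6b2, not tested otherwise, was called, 0 without TMM, 0 with no replicate block and 1 to 2 without a library. With no low-count filter 1 member was lower than in astrocytes, OPC and vascular cells each. Across subtypes the count was 18 at 5% mitochondrial UMIs, 5 in cells thinned to 1000 UMIs, 2 with no replicate block, 12 in cells of 2000 to 6000 UMIs and 15 to 27 without a library. In Crh and Wif1 cells it was 2 at 5% mitochondrial UMIs, 5 with the stricter subtype gate, 4 thinned, 0 with no replicate block, 0 in cells of 2000 to 6000 UMIs and 4 to 12 without a library. In Ppp1r1b and Crym cells it was 3 thinned, 3 with no replicate block and 8 to 21 without a library, and in Slc17a8 cells 4 at 5% mitochondrial UMIs, 1 with no replicate block and 2 to 9 without a library. In Cck and Greb1 cells the higher count was 1 at 5% mitochondrial UMIs, 2 with DESeq2 or no low-count filter, 0 with no replicate block or in cells of 2000 to 6000 UMIs and 1 to 2 without a library, and the lower count 1 at 5% mitochondrial UMIs or with DESeq2, 0 with the stricter gate, no low-count filter, no replicate block or cells of 2000 to 6000 UMIs, and 0 to 1 without a library. The Zic1 and Zic4 count was 0 at 5% mitochondrial UMIs, with no low-count filter, no replicate block or cells of 2000 to 6000 UMIs, and 0 to 2 without a library. In Tac2 and Ebf1 cells 1 member was higher at 5% mitochondrial UMIs or with DESeq2, 2 at 20% or with no low-count filter and 0 to 1 without a library; in Sst and Npy cells 1 with no low-count filter (Cox6a2); in glutamatergic neurons 0 to 1 without a library; and in Tshz1 and Foxp2 cells 1 was lower with the stricter gate, thinned or in cells of 2000 to 6000 UMIs. Reversed signs for single genes were Cox4i1 over oligodendrocytes at -0.013 in cells of 1000 to 2000 UMIs; Cox6a1 and Ndufa3 over oligodendrocytes at 0.087 and 0.10 and Cox6a1 over vascular cells at -0.064 without TMM, the last -0.0061 to 0.22 without a library; in thinned Crh and Wif1 cells Ndufa6 at -0.025, Ndufb5 at -0.33 and Ndufc1 at -0.045; and in thinned Ppp1r1b and Crym cells Atp5f1 at 0.34. Cox7a2l over vascular cells, never called, was 0.29 with at least 800 genes, 0.16 with 300, 0.084 and 0.16 at 5% and 20% mitochondrial UMIs, 0.037 with doublets kept, 0.16 with the stricter class gate, 0.13 thinned, 0.030 with DESeq2, 0.68 with no low-count filter, 0.43 in cells of 1000 to 2000 UMIs and -0.15 to 0.21 without a library. The Cox6a2 share of its pair in Sst and Npy cells was 15.1% in thinned cells. The causes were not tested, beyond the smaller sums of thinned and banded cells. Counts in this section are of members only, without the share of all genes called in the same setting. Groups of 12 to 34 vascular cells per library limit the precision of that comparison.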
